A study of Mus musculus with 27 samples.

Results

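Overexpression of an HA-tagged nuclear form of SREBP1c in mouse liver was accompanied by 1339 HDAC3 sites absent from the HDAC3 list of GFP livers. All 1339 were in the HDAC3 list of livers with the tagged protein and had no HA site. These sites were selected on the deposited ChIP-seq peak lists alone: an HDAC3 interval from HA-nSREBP1c livers was kept if it overlapped, by at least 1 bp, no HDAC3 interval from GFP livers and no HA interval. They made up 9.70% of the 13798 HDAC3 sites of HA-nSREBP1c livers and 5.74% of the 23317 distinct intervals of the 3 lists. They are termed gained sites without SREBP1c here, where SREBP1c means the HA-tagged protein only. SREBP1c without the tag was not mapped. Being gained or lacking an HA site is how they were chosen and not a finding.

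The livers came from C57Bl/6 mice fed ad libitum and taken 10 days after injection of AAV8, an adeno-associated virus that delivers genes mainly to hepatocytes. HDAC3 was precipitated from 3 samples of livers given AAV8 for HA-nSREBP1c and from 3 samples of livers given AAV8 for GFP, and the HA tag from 2 samples of HA-nSREBP1c livers. The input for the HDAC3 ChIP was pooled from HDAC3-floxed livers given AAV8 for Cre, which lack HDAC3, and the input for the HA ChIP was pooled from GFP livers. No source used here gives the promoter that drives each transgene. Each group has 1 list of peaks, so no value below has an error between livers, and the level of the transgene in these livers was not analysed here. RNA entered only as a list of genes expressed in liver, from 17 libraries of HDAC3-floxed, SCAP-floxed and HDAC3/SCAP-floxed C57Bl/6 mice given AAV8 for Cre or for GFP.

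HDAC3 removes acetyl groups from histones as the enzyme within NCoR and SMRT corepressors. Nuclear receptors such as REV-ERB bring these complexes to chromatin in liver, where they hold down genes of lipid metabolism. SREBP1c is a membrane-bound factor whose released, nuclear form binds sterol regulatory elements and E-boxes and activates genes of fatty acid synthesis. The nuclear form used here (nSREBP1c) needs no release from the membrane, and its HA tag lets its binding be mapped.

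Gained sites were the smaller side of the change between the HDAC3 lists. Of the HDAC3 sites in HA-nSREBP1c livers, 1819 (13.2%) had no overlapping site in GFP livers. Of the 18471 HDAC3 sites in GFP livers, 6462 (35.0%) had no overlapping site in HA-nSREBP1c livers. Most gained sites lacked an HA site: 1339 of 1819 (73.6%) overlapped no HA interval, and 480 (26.4%) overlapped one. An HA interval lay on 29.9% of the 11979 sites found in both lists, termed constant sites here, and on 11.03% of the sites found only in GFP livers. These shares use the lists that chose the sites and are given as a description, with no test.

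The authors' files already hold this division. Each list is laid out in 4 stretches set apart by blank lines, and most intervals that overlap between lists have identical coordinates. The HDAC3 list of HA-nSREBP1c livers has a stretch of 1354 intervals that occur in neither other list with the same coordinates. All 1339 gained sites without SREBP1c were in that stretch, and the other 15 overlapped an interval of another list in part. Of those 15, 7 overlapped a GFP HDAC3 interval and 9 an HA interval, 1 of them both.

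Few sites lay at the edge of the rule, in lists whose overlapping intervals mostly share identical coordinates. Such coordinates leave few partial overlaps, so their small number is no measure of how sharp the boundary is. All intervals are 200 bp wide, and the 15 sites that just failed the rule had their centres 101 to 186 bp from the centre of the interval they overlapped. The one with the longest overlap, chr17:84805091-84805290 (mm9, as are all coordinates here), shared 99 bp with a GFP HDAC3 interval. The one with the shortest, chrX:35826767-35826966, shared 14 bp with an HA interval. Among the sites that just passed, 12 had a GFP HDAC3 or HA interval centred under 300 bp away. The nearest of these, chr5:136158860-136159059, lay 207 bp from an interval on both other lists, and chr11:86297749-86297948 lay 229 bp from a GFP HDAC3 interval. In all, 109 gained sites had a GFP HDAC3 interval centred under 1 kb away, 61 an HA interval, and 140 either of them. The other 1199 were at least 1 kb from both.

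Most gained sites without SREBP1c stood away from the sites that HDAC3 occupied in both conditions. The nearest constant HDAC3 site was a median of 28.9 kb away (quartiles 6.65 and 90.3 kb, n = 1339), where all distances are between centres and leave out overlapping intervals. The same distance was 18.7 kb for the 480 gained sites with an HA site and 11.6 kb for constant sites without HA (n = 8395). It was 15.6 kb for sites of GFP liver only without HA (n = 5749). The nearest constant site could be with or without HA. A constant site lay within 10 kb of 424 gained sites without SREBP1c (31.7%) and of 39.2% of gained sites with HA. The shares were 47.1% for constant and 41.6% for GFP-only sites without HA. The order was alike over most chromosomes. On each of the 20 chromosomes the median of gained sites without SREBP1c was above those of constant and of GFP-only sites without HA. On 15 of 20 it was above that of gained sites with HA. Chromosome medians ran from 16.7 to 462.7 kb for gained sites without SREBP1c. They ran from 8.19 to 70.4 kb for constant sites without HA and from 9.52 to 155.9 kb for GFP-only sites without HA. No test was made over regions, which are not replicates of a liver.

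**Figure D1:**
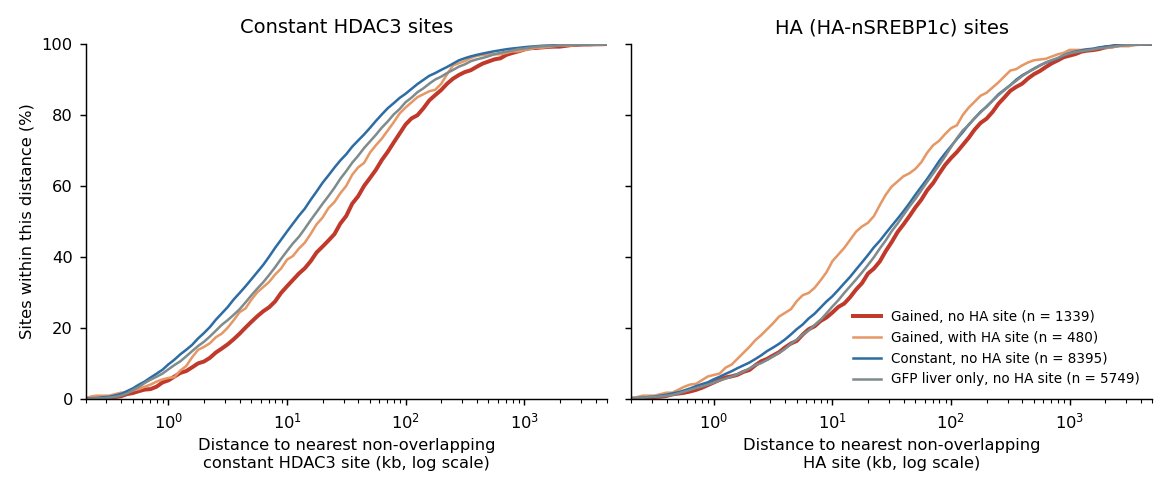
Cumulative share of sites (%, vertical axis) by distance in kb (log scale) to the nearest non-overlapping constant HDAC3 site (left) or HA site (right), for gained sites without HA, gained sites with HA, constant sites without HA and GFP-only sites without HA. On the left the curve of gained sites without HA lies lowest over most of its length (median 28.9 kb), and on the right it runs close to the curves of constant and GFP-only sites.

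HA-tagged nSREBP1c was not mapped close to most of these sites. The nearest HA site was a median of 41.5 kb away (quartiles 10.5 and 152.9 kb). It was 34.3 kb away for constant sites without HA and 36.7 kb for GFP-only sites without HA, all 3 classes being barred by the rule from overlapping one. Gained sites that did overlap an HA site had another, separate HA site a median of 20.8 kb away. An HA site lay within 1 kb of 61 gained sites without SREBP1c (4.56%), of 5.44% of constant sites and of 4.50% of GFP-only sites without HA. Within 10 kb the shares were 24.3%, 28.9% and 26.0%, and within 100 kb 67.8%, 71.2% and 70.9%. On 18 of 20 chromosomes the median of gained sites without SREBP1c was above that of constant sites without HA. On 12 of 20 it was above that of GFP-only sites without HA. The median distance was thus longest for gained sites without SREBP1c among these 3 classes, while their share within 1 kb was close to that of GFP-only sites, and no difference was tested. At the far end, 431 gained sites (32.2%) had no HA interval within 100 kb, and 203 (15.2%) had no HDAC3 interval of GFP livers within 100 kb.

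Sites lost from the list were not close by as a rule. The nearest site of GFP liver only was a median of 59.9 kb from a gained site without SREBP1c, 53.4 kb from a gained site with HA and 33.2 kb from a constant site without HA. It lay within 1 kb of 47 gained sites without SREBP1c (3.51%) and within 10 kb of 219 (16.4%). For gained sites with HA the shares were 3.13% and 19.2%. Both classes of gained site thus lay farther from GFP-only sites than constant sites without HA did. For constant sites without HA the shares were 4.87% and 27.3%. Of the nearest neighbours of any kind, 49.8% were constant HDAC3 sites, 25.2% GFP-only sites, 14.2% HA sites with no HDAC3 and 10.8% other gained sites. Among all other intervals these kinds made up 51.8%, 27.9%, 12.5% and 7.90%. The share with a gained neighbour was thus above the share of gained sites among all intervals, a difference that was not tested. Gained sites with HA had a similar share: their nearest neighbour was a gained site in 10.4%, against 6.56% of constant and 6.26% of GFP-only sites without HA. An HA site with no HDAC3 was the nearest neighbour for the 14.2% of gained sites without SREBP1c given above and for 18.8% of gained sites with HA. It was nearest for 9.22% of constant and 10.3% of GFP-only sites without HA. Over the 3 classes without HA, both this share and the median distance to any HA site were largest for gained and smallest for constant sites. The distance counts HA sites with HDAC3 too.

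Neighbourhoods of gained sites, with or without SREBP1c, held fewer constant HDAC3 sites on average than those of constant or GFP-only sites without HA. Within 50 kb on either side, a gained site without SREBP1c had a mean of 1.73 constant sites, and 506 of the 1339 (37.8%) had none. A gained site with HA had a mean of 2.03, with none in 30.8%. A constant site without HA had 2.34 other constant sites, with none in 23.7%, and a GFP-only site without HA had 2.11, with none in 27.5%. Constant sites flanked 317 gained sites without SREBP1c (23.7%) on both sides within 50 kb, and 24.8% of gained sites with HA. They flanked 33.9% of constant and 29.9% of GFP-only sites without HA. The means of HA sites were closer together, at 1.21 around gained sites without SREBP1c, 1.32 around constant sites and 1.29 around GFP-only sites without HA. Around gained sites with HA the mean was 1.68.

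Most gained sites stood alone. Runs were formed from all HDAC3 sites of HA-nSREBP1c livers by joining neighbours under 10 kb apart. Of the gained sites without SREBP1c, 856 (63.9%) were in no run, 435 (32.5%) were in runs of 2 to 4 sites and 48 (3.59%) in runs of 5 or more. The shares alone were 53.3% for gained sites with HA and 49.6% for constant sites without HA. Of 2775 runs, 443 held a gained site without SREBP1c, and 17 were made up of such sites only. Of the 180 runs of 5 or more sites, 40 held one, and the largest run of 10 sites held none. Another gained site without SREBP1c lay within 10 kb of 72 of them (5.38%), in 36 pairs, and no 3 in a row were joined. The closest pair spanned 0.45 kb, at chr16:91728716-91729165, and the next spanned 0.639 kb, at chr13:52250851-52251489. Another pair, at chr3:104024511-104025546, spanned 1.04 kb. The median distance from a gained site without SREBP1c to the next of its kind was 344 kb.

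**Figure D2:**
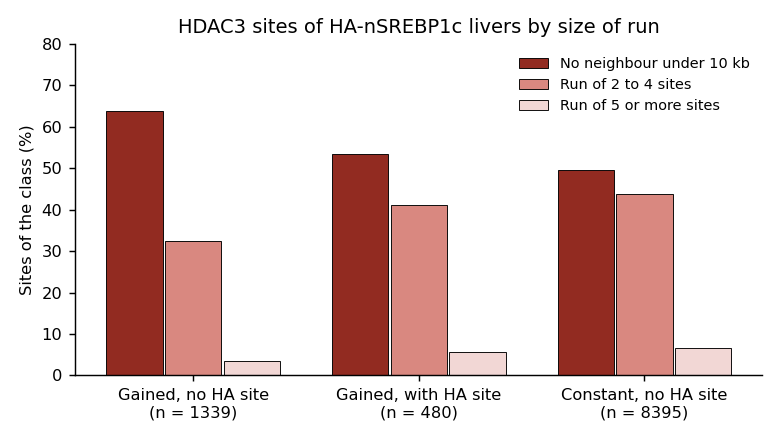
Share of sites (%, vertical axis) with no other HDAC3 site of HA-nSREBP1c livers under 10 kb away, in runs of 2 to 4 sites and in runs of 5 or more, for 3 classes of HDAC3 site. Sites alone made up 63.9% of gained sites without HA, 53.3% of gained sites with HA and 49.6% of constant sites without HA.

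One run stood out and was chosen after its values were seen. It held 7 HDAC3 sites over 17.4 kb at chr3:88212956-88230319, of which 4 were gained without SREBP1c, and it was the 1 run with more than 2 such sites. The gained sites lay at both of its ends, 2 at 0 and 1.14 kb and 2 at 16.1 and 17.2 kb from its first site, and the 3 sites between them were constant. HDAC3 intervals of GFP livers lay at 2.78, 5.73, 6.73 and 13.2 kb, and HA intervals at 6.73, 7.35 and 13.2 kb, so that 2 of the 3 constant sites carried an HA site and none of the gained ones did. The 1-Mb bin around it, chr3:88000001-89000000, held the most gained sites without SREBP1c, 7 with the 4 of the run included. The bin also held 9 constant sites, 13 HA sites and 2 GFP-only sites. Among runs with 2 such sites, the longest by number of sites was chr15:88680973-88706481, with 9 HDAC3 sites over 25.5 kb.

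**Figure D3:**
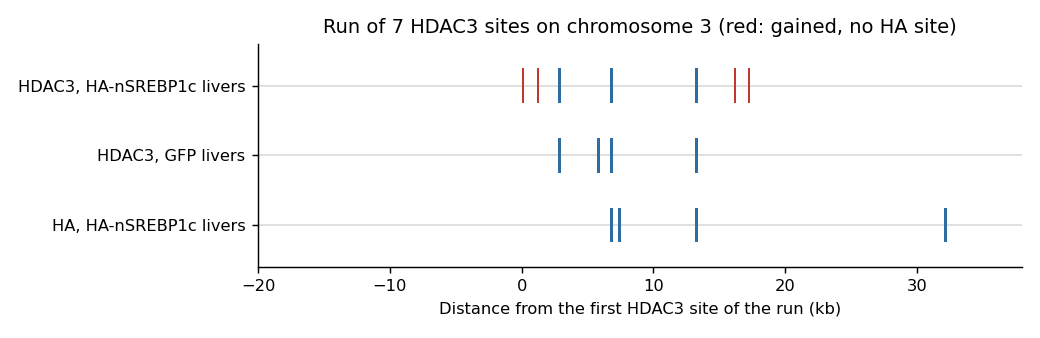
Map of the run of 7 HDAC3 sites on chromosome 3, with distance in kb from its first site on the horizontal axis and 1 row for each peak list. Gained sites without HA (red) lie at 0, 1.14, 16.1 and 17.2 kb, and the intervals of GFP livers and of the HA list (blue) within the run lie between 2.78 and 13.2 kb.

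At the other extreme were gained sites far from any interval of the 3 lists. The most isolated, chr3:46195679-46195878, was 2194 kb from the next interval. It was followed by chr12:67600340-67600539 at 1532 kb and chr7:64816208-64816407 at 1511 kb.

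On the scale of 1 Mb, gained sites without SREBP1c were more numerous in bins with many constant sites. Their share of gained sites without SREBP1c plus constant sites was smaller there, in part by construction. Of 2024 bins with any interval, 870 held a gained site without SREBP1c. Bins with 11 or more constant sites held 1.29 ± 1.27 of them (mean ± SD over 378 bins), bins with 6 to 10 held 0.874 ± 1.07 (468 bins), bins with 3 to 5 held 0.531 ± 0.748 (407 bins) and bins with 1 to 2 held 0.286 ± 0.564 (531 bins). The 240 bins with no constant site held 0.304 ± 0.544, or 73 gained sites in all (5.45%). Bins without any interval were left out, which can raise the means of this last group only. Its mean is thus not comparable with that of bins with 1 to 2 constant sites. As a share of gained sites without SREBP1c plus constant sites, they were 16.8% in bins with 1 to 2 constant sites, 11.9% with 3 to 5, 10.1% with 6 to 10 and 7.53% with 11 or more. Sorting bins by their constant sites lowers this share in part by construction. The mean number of GFP-only sites over the same 4 groups of bins was 1.19, 2.47, 4.17 and 7.02, and 0.917 in bins with no constant site. Over the bins, the number of gained sites without SREBP1c had a Pearson r of 0.404 and a Spearman rho of 0.385 with the number of constant sites. With HA sites these were 0.396 and 0.374, and with GFP-only sites 0.325 and 0.315. Counts in a bin share its gene density and base composition, and bins are not independent. Bins without any interval were also left out of these correlations, so the values are descriptions. After the bin on chromosome 3, the most gained sites were 6, in each of chr10:79000001-80000000, chr6:124000001-125000000 and chr11:106000001-107000000, which held 20, 18 and 17 constant sites in that order.

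**Figure D4:**
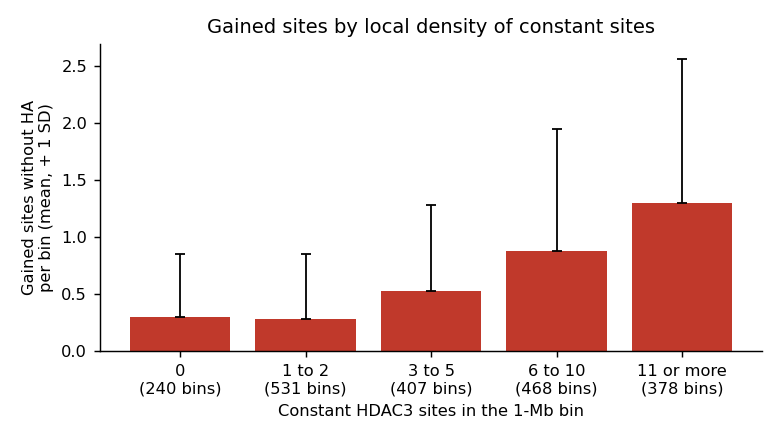
Mean number of gained HDAC3 sites without HA per 1-Mb bin (vertical axis, bars; error bars reach 1 SD above the mean) by the number of constant HDAC3 sites in the bin. The mean is 0.304 in bins with no constant site and 1.29 in bins with 11 or more, with SDs close to or above the means. Bins without any interval are left out, which can raise the mean of bins with no constant site only.

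Gained sites without SREBP1c were found on all 19 autosomes and the X. Their share of the HDAC3 sites of HA-nSREBP1c livers was 9.84 ± 1.398% (mean ± SD over 20 chromosomes), with the lowest on chromosome 17 (7.27%, 40 sites) and the highest among autosomes on chromosome 10 (11.6%, 88 sites). The X had 12.8%, which rests on 11 of 86 sites. Chromosome 6 held the most gained sites, 99. Set against genes expressed in liver (mean of at least 1 CPM, their count scaled to library size, over the 17 RNA libraries), chromosome 6 had 16.4 gained sites per 100 genes, chromosome 17 had 6.54 and the X had 3.07. Constant sites were also fewest on the X, at 19.8 per 100 genes against 68.0 to 124 on autosomes. Across the 20 chromosomes the count of gained sites without SREBP1c had a Pearson r of 0.901 with that of constant sites and of 0.650 with that of expressed genes, or 0.843 and 0.616 over the 19 autosomes. Chromosome length is shared by these counts.

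**Figure D5:**
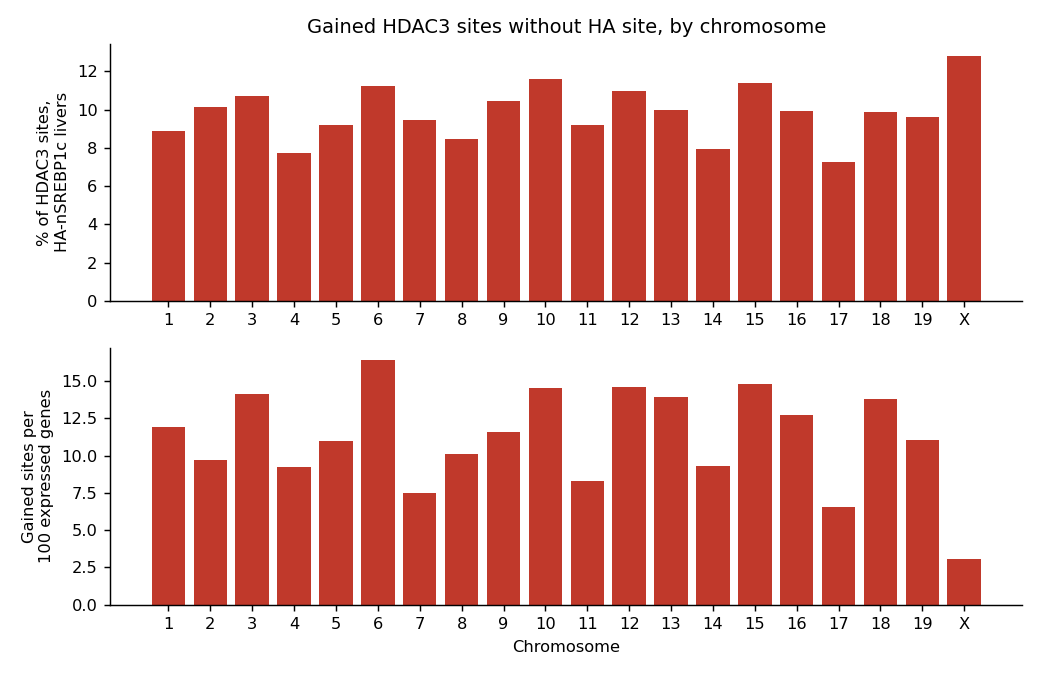
Gained HDAC3 sites without HA by chromosome, as a share of the HDAC3 sites of HA-nSREBP1c livers (%, top) and per 100 genes expressed in liver (bottom). The share runs from 7.27% on chromosome 17 to 12.8% on the X, and the X has the lowest number per 100 expressed genes, 3.07.

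The lists bound what can be read from these sites. The HA list maps the tagged nSREBP1c only, so SREBP1c without the tag at a gained site was not measured. An interval is present or absent at the authors' threshold, with no height or read count, so weak HDAC3 signal below the threshold in GFP livers, or weak HA signal at a gained site, could not be measured. The HDAC3 list of HA-nSREBP1c livers was shorter than that of GFP livers, and a difference in read depth or ChIP yield between them cannot be told apart from a difference in binding.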

How the data were processed

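Each deposited peak list holds a chromosome, a start and an end for intervals of 200 bp and no score. The build is mm9, per the submitters' processing notes. Bowtie and HOMER are named there too, with no role. No source used here states the peak threshold, whether replicates were pooled, how the lists were merged or the ChIP read depth. Positions were read in Python 3.11.15 with pandas 2.3.3 and numpy 2.4.6, and distances were taken between centres. Figures were drawn with matplotlib 3.10.9. The code for distances and for counts within a window was checked against a direct count on simulated intervals. The members and lists were chosen with earlier results of these data known.

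The deposited RNA table holds raw read counts per RefSeq transcript, as the values show. One transcript per gene, marked by the authors, was used (22869 genes, 3546597 to 20622671 counts per library). Of 12271 genes with at least 1 CPM, 12255 were placed on a chromosome through a RefSeq table of assembly GRCm38.p6, of which only chromosome names were used. Another 17 columns with values per library went unused.

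Tests of knockout RNA at genes linked to the sites, motif searches and printed sequences had been planned. They need gene positions or a genome on mm9, which were not used here, and coordinates were not moved between builds, so sites are given by position only, and the rule for naming genes was not applied. The run on chromosome 3, the pairs and the isolated sites were picked after their values were seen. The alternatives tried were a longer overlap, a 1 kb zone free of other intervals, the authors' own division, leaving out the X and other CPM minimums. No p-value was computed.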

Additional observations from a re-analysis of the deposited data

How the results depend on the processing

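The count of 1339 gained sites was 1354 when an overlap of at least 100 bp was needed to call a site shared. The authors' own stretch of the list, an alternative chosen after seeing the data, holds the same 1354 sites. The count was 1328 without the X chromosome, likewise chosen later. It was 1199 without the sites that had a GFP HDAC3 or HA interval within 1 kb. That last rule takes out the closest sites by construction. It moved the median distance to the nearest constant site to 33.3 kb and to the nearest HA site to 48.8 kb, the share with a constant site within 10 kb to 27.5%, the share with an HA site within 10 kb to 19.9% and the share flanked by constant sites on both sides to 21.02%. Under the other alternatives these 5 values stayed within their 95% binomial intervals, such as 26.1 to 33.0 kb for the first median, which cover counting error only. Those alternatives added 15 sites or took out the 11 on the X. That is too few to move these values far, so their staying is no check of them. On the X there were 2.30 gained sites per 100 genes with a minimum of 0.1 CPM and 1.08 with none, both chosen later. A stricter peak threshold was not run because the lists hold no score, nor were the alternatives on RNA tests and transcription starts, which need gene positions on mm9. No paired analysis was possible because no test between samples was made and each group has 1 list.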
